A study of Mus musculus with 6 samples.

Results

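Metallothionein and zinc transporter genes were examined in the pancreas of mice with caerulein-induced acute pancreatitis (AP), with and without polyI:C pretreatment. The set was chosen by name and holds 8 genes. It consists of the metallothioneins Mt1 and Mt2, the zinc exporters Slc30a1 and Slc30a2, the zinc importers Slc39a4, Slc39a5 and Slc39a14, and the zinc-sensing transcription factor Mtf1. All 8 had values in the deposited tables of 22556 genes. Slc39a5 fell 5.13-fold and Mt1 rose 2.15-fold in AP mice. Mt2 rose by more (9.06-fold), but from an estimated 1 read in each saline library. Between AP mice with and without polyI:C pretreatment, limma called 0 of the 8, in a comparison where 0.845% of all genes passed.

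Metallothioneins are small cysteine-rich proteins that bind zinc and copper and hold the free metal in the cell low. Proteins of the SLC30 (ZnT) family carry zinc out of the cytosol, either out of the cell or into vesicles, while those of the SLC39 (ZIP) family carry it into the cytosol. When cytosolic zinc is high, the zinc finger protein MTF-1 binds metal response elements in promoters, those of the metallothioneins and Slc30a1 among them. Pancreatic acinar cells take up much zinc, store part of it in their zymogen granules and release it with the digestive enzymes.

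The 6 libraries came from the pancreases of wild-type C57BL/6 mice aged 8 weeks, with 2 mice in each of 3 groups. Saline mice received no caerulein. AP mice received repeated injections of caerulein (spelled cerulein in the labels), a peptide that overstimulates the cholecystokinin receptors of acinar cells, and polyI:C-pretreated AP mice, called pretreated mice from here on, were first given polyI:C, a double-stranded RNA made by synthesis, and then caerulein. A group given polyI:C without caerulein was not analysed here. The pancreas was taken whole, so a lower level in it can come from fewer cells of a type or from less RNA per cell, and these cannot be told apart in any result given here.

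Values are TPM, a level of transcripts per unit of gene length, set to a common sum in all libraries. The depth, estimated from the spacing of low values, ran from 3295407 to 10849696 reads per library and was lowest in the saline mice. Of the 15 acinar marker genes listed, 5 had values, and all 5 (Ptf1a, Rbpjl, Bhlha15, Nr5a2 and Gatm) were expressed in every library. Their summed level was 1458 to 1695 TPM in saline mice, 515.7 to 618.1 in AP mice and 966.5 to 984.8 in pretreated mice. Summed levels of 8 myeloid markers were 349.5 to 521.3, 2089 to 2338 and 189.8 to 291.7 TPM in the same order, with only S100a8 at 0, in 1 saline mouse. Lyz2 made up most of each of these sums. Both pretreated mice lay above both saline mice for 3 of the 8 markers and below them for 2, Lyz2 among these. The shares of all genes were 54.4% and 14%. For 6 duct markers the summed levels were 152.2 to 181.1, 1454 to 1492 and 1158 to 1188 TPM, with none at 0. Over the 6 libraries, fibroblast markers summed to 495.3 to 779 TPM, endothelial markers to 47.57 to 70.17 TPM and lymphoid markers to 2.269 to 24.49 TPM. Most of the fibroblast sum was Dcn, for which both AP mice lay below both saline mice. They lay above them for 5 of the 6 fibroblast markers, against 52.6% of all genes higher and 16.4% lower.

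One library stood apart. In replicate 2 of the pretreated mice, 14 genes of the intestinal epithelium, such as Fabp1, Sis and Cdx2, summed to 4139 TPM, or 0.414% of the library. In the other 5 libraries the same 14 genes summed to between 11.21 and 21.64 TPM, and each of the 14 was highest in replicate 2. The intestinal epithelium expresses metallothioneins and zinc transporters of its own, so for the 8 genes, results that use pretreated mice are given with and without this library. Its part in them was not tested otherwise.

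Groups were compared with limma on log2(TPM + 0.5), in a fit to all 6 libraries and to 16814 genes, those whose mean reached 1 TPM. To pass the threshold, a gene needed a 2-fold change or more and an adjusted p (Benjamini-Hochberg, BH) no higher than 0.05, and "rose" or "fell" is used for such genes only. All log2 fold changes below are on the log2(TPM + 0.5) scale, and every adjusted p is limma's with BH adjustment over all genes tested. With 2 mice a group, the smallest two-sided p of an exact permutation test is 0.333, so none is given for single genes. Nothing in the labels says how the mice of a group were kept or processed apart, and the p-values measure only the spread between these libraries. The 3 comparisons share libraries and are not independent of each other.

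The scale mattered for AP against saline. The median of all genes was higher by 0.45 (log2) in AP mice than in saline mice, and by 0.0574 after median-of-ratios scaling, which sets the typical gene to the same level in every library. Between pretreated and saline mice it was 0.49 and 0.0615, and between pretreated and AP mice 0.0392 and 0.0157.

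In AP against saline mice, 2 of the 8 genes rose (Mt1 and Mt2) and 1 fell (Slc39a5). Over all genes tested, 22.2% passed in either direction, 18.2% higher and 4.03% lower, and in a set of 8 genes a count of 3 is not read as more than that background. With an adjusted p of at most 0.05 at any fold, 4 of the 8 were higher and 3 lower, against 33% and 7.39% of all genes (40.4% in either direction). By values alone, both AP mice lay above both saline mice for 5 of the 8 and below them for 3, as they did for 52.6% and 16.4% of all genes. The median log2 fold change of the 8 was 0.71, against 0.45 for all genes. After median-of-ratios scaling, only Slc39a5 passed. In pretreated against AP mice, limma called 0 of the 8, against 0.845% of all genes (0.44% higher and 0.404% lower), and 0 at any fold, against 1.23%. Voom on the estimated reads also called 0, and 4 of the 8 had an unadjusted p under 0.05 (Mt1, Slc30a1, Slc39a5 and Slc39a14), against 13.9% of all genes. Both pretreated mice lay above both AP mice for 2 of the 8 and below them for 3, against 27.7% and 22.1%. In pretreated against saline mice, 1 rose (Mt2) and 1 fell (Slc39a5), against 16.9% and 2.97% of all genes (19.9% in either direction). At any fold, 4 had an adjusted p of at most 0.05 and were higher and 2 lower, against 33.4% and 5.8% (39.2% in either direction), and the groups did not overlap for 5 higher and 2 lower, against 54.4% and 14%.

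**Figure D1:**
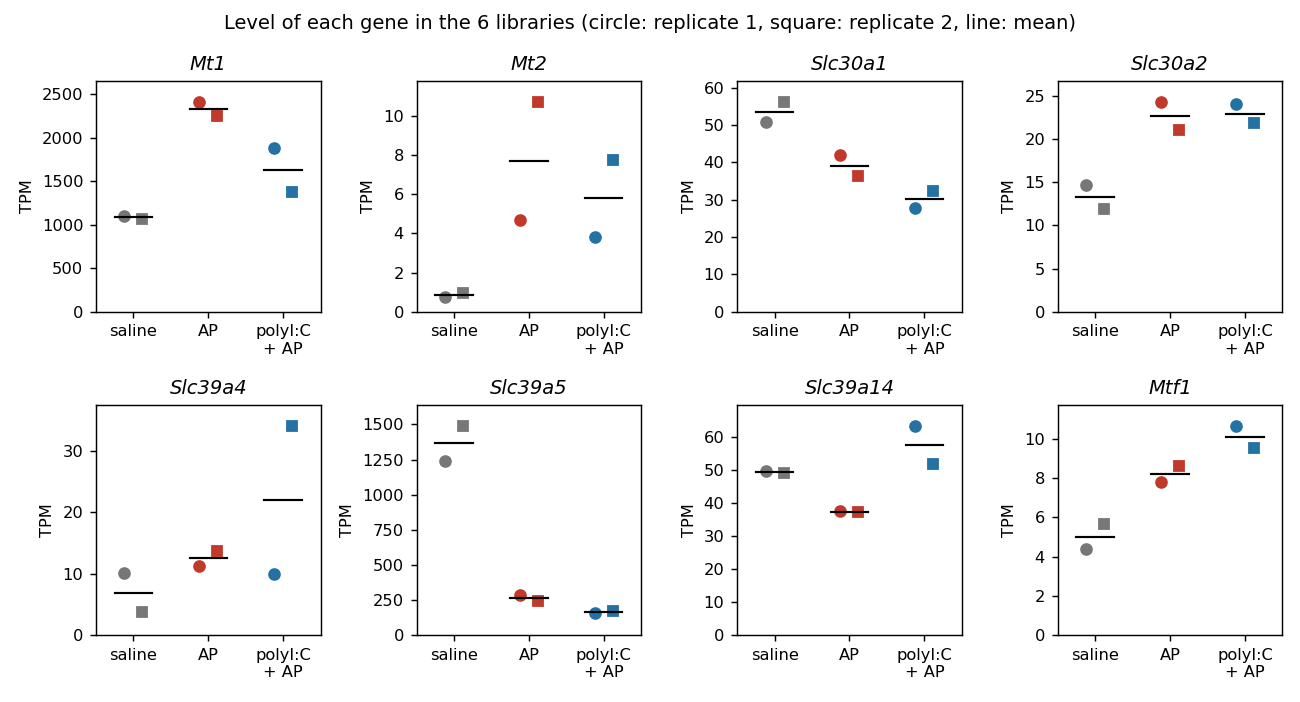
Level of each of the 8 genes in TPM (vertical axes start at 0) in the 6 libraries. Circles are replicate 1, squares replicate 2 and lines the mean of the 2 mice of a group. Slc39a5 stood at 1240 TPM or more in the saline mice and at 287.4 TPM or less in the other 4 libraries, and Mt1 was highest in the 2 AP mice.

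Mt1 (ENSMUSG00000031765) lies on chromosome 8 from 94179082 to 94180327 (GRCm38, + strand), and Mt2 (ENSMUSG00000031762) lies just upstream of it from 94172664 to 94173568 on the same strand. Both encode metallothioneins that are made in most tissues. Their promoters are printed because the metal response element is the sequence through which MTF-1 acts on them. The windows are those of RefSeq (GRCm38.p6), from 250 bases before to 50 bases after the start site, 5′ to 3′ on the + strand, at chr8:94178839-94179138 for Mt1 and chr8:94172368-94172667 for Mt2. Capitals mark the core of the metal response element, TGCACNC or TGCGCNC, on either strand.
Mt1: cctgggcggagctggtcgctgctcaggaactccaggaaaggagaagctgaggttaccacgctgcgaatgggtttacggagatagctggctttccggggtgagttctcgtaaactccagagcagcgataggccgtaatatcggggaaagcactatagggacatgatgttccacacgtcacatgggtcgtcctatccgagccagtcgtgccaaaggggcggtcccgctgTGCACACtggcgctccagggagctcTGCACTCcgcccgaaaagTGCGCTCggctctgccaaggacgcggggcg
Mt2: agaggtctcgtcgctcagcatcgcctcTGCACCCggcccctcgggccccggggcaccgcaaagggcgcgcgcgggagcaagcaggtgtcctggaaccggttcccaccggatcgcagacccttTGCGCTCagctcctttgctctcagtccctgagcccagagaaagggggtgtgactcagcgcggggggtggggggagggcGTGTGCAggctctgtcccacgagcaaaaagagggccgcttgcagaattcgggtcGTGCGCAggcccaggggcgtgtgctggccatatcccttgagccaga

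The Mt1 window held 3 matches to the core and the Mt2 window 4. Of the 32851 RefSeq promoter windows of the same length, 25.7% held at least 1 match, 1.97% at least 3 and 0.517% at least 4. In Mt1 all 3 lay on the + strand, at -23 to -17, 3 to 9 and 21 to 27 from the start site, where the first transcribed base is 1. In Mt2 they lay at -223 to -217 and -128 to -122 on the + strand, and at -50 to -44 and 5 to 11 on the other. The GENCODE annotation also lists Mt1 transcripts that begin 122 and 152 bases downstream of the RefSeq start, and Mt2 transcripts that begin 46 and 242 bases downstream. Measured from those starts, the matches lie further upstream. A match is a stretch of letters and does not show binding in these mice.

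Mt1 was at 1106 and 1070 TPM with saline, 2413 and 2257 TPM with AP and 1889 and 1378 TPM after pretreatment. The 3 groups did not overlap, with saline mice lowest, AP mice highest and pretreated mice between them and more spread. The group means were 1088 ± 25.4, 2335 ± 110.3 and 1634 ± 360.7 TPM (SD, n = 2 each). Mt1 rose 2.15-fold in AP mice (log2 fold change 1.10, SE 0.15, adjusted p = 0.00165). This rise was 0.67 after median-of-ratios scaling, 0.89 with the most abundant genes left out of the scaling and 0.85 with voom, and in these 3 alternatives it did not reach 2-fold.

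Between pretreated and AP mice the Mt1 log2 fold change was -0.53 (95% interval -0.89 to -0.17, adjusted p = 0.18). Without the library with intestinal transcripts it was -0.30, on the remaining pretreated mouse, whose spread is assumed to be that of the other groups. Against saline mice the value for pretreated mice was 0.57 (adjusted p = 0.0241), below 2-fold, and 0.80 without that library. Mt1 was thus lower in both pretreated mice than in both AP mice, by an amount that did not pass the test. Of the 8 myeloid markers, 6 were also lower in both pretreated mice than in both AP mice, against 22.1% of all genes. S100a8 and S100a9 overlapped. Limma called 3 of the 8 markers lower (Itgam, Lyz2 and Csf1r), against 0.404% of all genes, and voom called 6. The median log2 fold change of these 8 markers was -1.58, and -1.52 without the library with intestinal transcripts. Their part in the Mt1 level was not tested.

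Mt2 stood at 0.76 and 0.94 TPM with saline, 4.69 and 10.70 TPM with AP and 3.82 and 7.76 TPM after pretreatment. Both saline mice lay below the other 4 libraries, and the 2 groups given caerulein overlapped. Mt2 rose in AP mice (log2 fold change 2.501, SE 0.68, adjusted p = 0.0259) and in pretreated mice against saline mice (2.15, SE 0.68, adjusted p = 0.0452). It did not pass between pretreated and AP mice (-0.35, 95% interval -1.98 to 1.28), where the value was -0.82 without the library with intestinal transcripts.

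These calls for Mt2 rest on very few reads. At the length of the gene's span, 905 bases, its TPM came to 1 read in each saline library, 9 and 26 reads in the AP libraries and 9 and 23 in the pretreated libraries. At its exon length, which voom used, it came to 0.65 in each saline library, 5.89 and 17.0 with AP and 5.89 and 15.0 after pretreatment. From the reads at the gene's span, the rate was 8.06 times higher in AP than in saline mice (exact 95% interval 2.07 to 69.2). In pretreated mice it was 5.91 times higher than in saline mice (1.51 to 50.9). These intervals cover counting error only. With any saline or AP library left out, the rise in AP mice no longer passed (log2 fold change 1.95 to 3.06), nor did it after median-of-ratios scaling (2.18) or with voom (2.15). The rise in pretreated mice no longer passed when any of the 6 libraries was left out, and without the library with intestinal transcripts it was 1.68. It was also lost after median-of-ratios scaling (1.81), with the most abundant genes left out of the scaling (2.05), with voom (1.73) and with a pseudocount of 0.1 (2.55).

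The level of Mt2 was far below that of its neighbour. Mt1 exceeded Mt2 by 1451 and 1142 times in the saline mice, 515 and 211 times in the AP mice, and 494 and 178 times in the pretreated mice. Of the 588 exonic bases of Mt2, 432 (73.5%) are shared with Gm45774, a gene annotated on the opposite strand for which no value was analysed here. Mt1 shares none of its 1246 exonic bases with another gene. Reads in the shared stretch can be assigned to neither gene if strand is not used, and the strand setting of the counting is not given in the sources used here. Among the other genes of the family, Slc39a7 shared 80.7% of its exonic bases with Gm20427 and had a mean level of 1.12 TPM. Whether such sharing set the Mt2 level was not tested. The ratio of Mt1 to Mt2 is therefore a ratio of the deposited values and may not be that of the transcripts.

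Slc30a1 encodes ZnT1, the exporter that carries zinc out through the plasma membrane and a gene with metal response elements known to respond to zinc. It lies on chromosome 1 from 191906767 to 191913247 (ENSMUSG00000037434, + strand). Its RefSeq promoter window, chr1:191906531-191906830 (GRCm38.p6, + strand), is printed for comparison with those of the metallothioneins, with the same core in capitals.
Slc30a1: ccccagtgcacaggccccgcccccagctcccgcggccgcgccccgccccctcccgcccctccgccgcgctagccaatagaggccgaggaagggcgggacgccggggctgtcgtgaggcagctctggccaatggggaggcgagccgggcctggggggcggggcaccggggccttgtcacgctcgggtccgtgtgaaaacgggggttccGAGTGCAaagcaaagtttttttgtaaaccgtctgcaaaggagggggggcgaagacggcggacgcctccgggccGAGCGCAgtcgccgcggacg

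The Slc30a1 window held 2 matches, at -43 to -37 and 31 to 37, both on the opposite strand, and 7.11% of all windows held at least 2. Slc30a1 was at 50.8 and 56.2 TPM with saline, 42.0 and 36.3 TPM with AP and 27.8 and 32.3 TPM after pretreatment. The 3 groups did not overlap, and the order ran from saline down to pretreated mice, unlike that of Mt1. In AP mice the log2 fold change was -0.45 (SE 0.13, adjusted p = 0.0342), which is below 2-fold. In pretreated mice it was -0.82 against saline mice (SE 0.13, adjusted p = 0.00343) and -0.37 against AP mice (adjusted p = 0.277).

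The direction of Slc30a1 held without the library with intestinal transcripts, where the same values were -0.93 against saline and -0.48 against AP mice. After median-of-ratios scaling the difference between pretreated and saline mice was -1.27 and passed the threshold, as it did with voom (-1.10) and with the most abundant genes left out of the scaling (-1.07). Exons of Slc30a1 share 8.92% of their bases with an antisense gene.

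Slc30a2 encodes ZnT2, which loads zinc into vesicles and, in acinar cells, into zymogen granules. The gene (ENSMUSG00000028836) lies on chromosome 4 from 134343181 to 134354484. It was at 14.6 and 11.9 TPM with saline, 24.28 and 21.02 TPM with AP and 24.02 and 21.79 TPM after pretreatment. Both groups given caerulein lay above the saline mice and overlapped with each other. The log2 fold change was 0.76 in AP mice (SE 0.17, adjusted p = 0.0128) and 0.77 in pretreated mice against saline mice (SE 0.17, adjusted p = 0.0123), both below 2-fold. After median-of-ratios scaling these were 0.34 and 0.33. The difference between pretreated and AP mice was 0.02 with a 95% interval of -0.39 to 0.43, and its sign turned with the scaling (-0.0063 after median-of-ratios scaling). Without the library with intestinal transcripts, Slc30a2 differed by 0.0866 from AP mice and by 0.84 from saline mice.

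Slc39a5 encodes ZIP5, an importer of the basolateral membrane of acinar and intestinal cells. The gene (ENSMUSG00000039878) lies on chromosome 10 from 128395931 to 128401229 on the - strand. With 1240 and 1491 TPM in the saline mice, it had the highest mean of the 8 genes there. The level was 287.4 and 245.3 TPM with AP and 158.6 and 174.6 TPM after pretreatment. The 3 groups did not overlap, and the gap between saline mice and the rest was several times the spread within any group.

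Slc39a5 fell 5.13-fold in AP mice (log2 fold change -2.35, SE 0.13, adjusted p = 7.79e-05) and 8.19-fold in pretreated mice against saline mice (-3.03, SE 0.13, adjusted p = 3.37e-05). Both falls passed the threshold in all 16 alternatives, with log2 fold changes from -2.79 to -2.22 and from -3.48 to -2.89. Between pretreated and AP mice the value was -0.67 (95% interval -0.98 to -0.36, adjusted p = 0.0719), and -0.74 without the library with intestinal transcripts. Without that library the difference from saline mice was -3.10.

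Some acinar markers fell along with Slc39a5 and others did not. In AP mice, 3 of the 5 acinar genes with values fell (Gatm, Rbpjl and Bhlha15), against 4.03% of all genes. Bhlha15, a transcription factor of the secretory state, had a log2 fold change of -2.83 (adjusted p = 3.94e-05). The other 2, Ptf1a and Nr5a2, had values of 0.20 and 0.16 and did not pass. In pretreated against saline mice, 2 of the 5 fell (Gatm and Bhlha15), against 2.97% of all genes. Ptf1a and Nr5a2 were higher there with an adjusted p of at most 0.05 but below 2-fold (0.93 and 0.71), and Rbpjl overlapped (-0.15). In pretreated mice, Bhlha15 was at 161.4 and 171.4 TPM against 53.6 and 46.4 TPM in AP mice, and it rose (1.73, adjusted p = 0.00397), as did Rbpjl. Slc39a5 was lower, not higher, in the same mice. Without the library with intestinal transcripts, on the remaining pretreated mouse, the log2 fold changes between these groups were 1.68 for Bhlha15 and 1.10 for Rbpjl. Neither passed there. The part of acinar cell number in the Slc39a5 level was not tested.

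Slc39a4 encodes ZIP4, the importer through which the intestine absorbs zinc. The gene (ENSMUSG00000063354) lies on chromosome 15 from 76612383 to 76617384. It was at 10.2 and 3.79 TPM with saline, 11.4 and 13.6 TPM with AP and 9.95 and 34.1 TPM after pretreatment. The highest value by far was that of the library with intestinal transcripts, and the other pretreated mouse lay below both AP mice. Log2 fold changes were 0.94 for AP against saline mice (adjusted p = 0.281), 0.55 in pretreated against AP mice (adjusted p = 0.762) and 1.49 in pretreated against saline mice (adjusted p = 0.103). Without that library, the second of these turned to -0.31 and the third was 0.63. The first was 0.28 without saline replicate 2 and 1.60 without saline replicate 1.

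**Figure D2:**
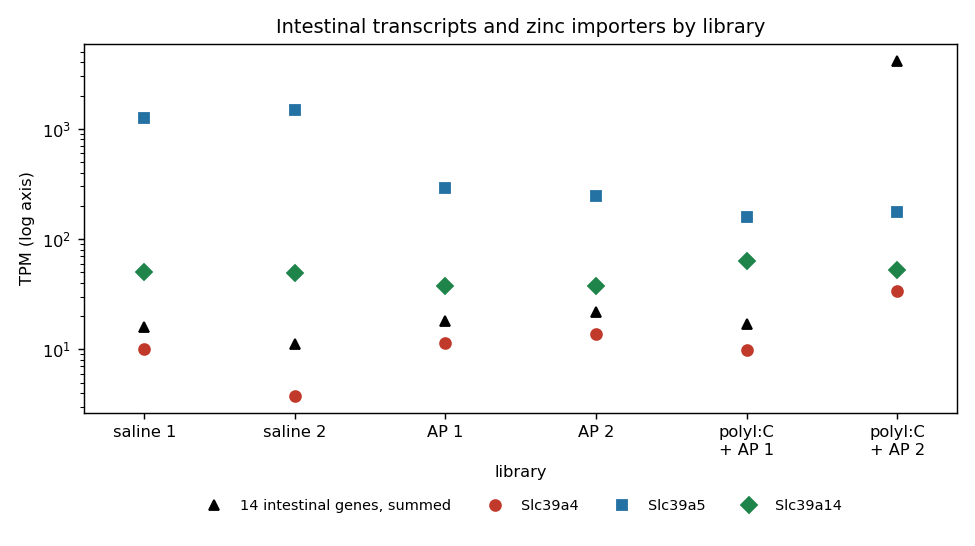
Summed TPM of 14 intestinal epithelial genes (black triangles) and TPM of the zinc importers Slc39a4, Slc39a5 and Slc39a14 in each of the 6 libraries, on a log axis. The intestinal sum is 4139 TPM in replicate 2 of the pretreated mice and at most 21.64 TPM elsewhere, and Slc39a4 is highest in the same library.

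Slc39a14 encodes ZIP14, which carries zinc, iron and manganese and is induced by interleukin-6 in the liver. The gene (ENSMUSG00000022094) lies on chromosome 14 from 70303469 to 70351425. It was at 49.8 and 49.3 TPM with saline, 37.8 and 37.3 TPM with AP and 63.6 and 51.9 TPM after pretreatment. The 3 groups did not overlap, and the AP mice were lowest. With AP, its log2 fold change from saline was -0.40 (SE 0.12, adjusted p = 0.0325), below 2-fold, and -0.82 after median-of-ratios scaling. In pretreated against AP mice it was 0.61 (95% interval 0.33 to 0.88, adjusted p = 0.0693), and 0.75 without the library with intestinal transcripts. Slc39a14 and Slc39a5 thus lay on opposite sides of AP in the pretreated mice, and neither passed the threshold. Against saline mice the sign for Slc39a14 depended on the scaling, with 0.21 as deposited, 0.36 without the library with intestinal transcripts and -0.24 after median-of-ratios scaling.

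Mtf1 (ENSMUSG00000028890), which encodes the zinc sensor, lies on chromosome 4 from 124802104 to 124849800. It was at 4.41 and 5.65 TPM with saline, 7.78 and 8.63 TPM with AP and 10.7 and 9.53 TPM after pretreatment. The groups did not overlap and were ordered from saline up to pretreated mice. The log2 fold change was 0.66 in AP mice (SE 0.17, adjusted p = 0.0219) and 0.95 in pretreated mice against saline mice (SE 0.17, adjusted p = 0.00575), both short of 2-fold. The second reached 1.02 and passed without the library with intestinal transcripts, and was 0.52 after median-of-ratios scaling. Between pretreated and AP mice it was 0.28 (95% interval -0.13 to 0.70), and 0.36 without that library. Exons of Mtf1 share 8.10% of their bases with 1110065P20Rik.

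**Figure D3:**
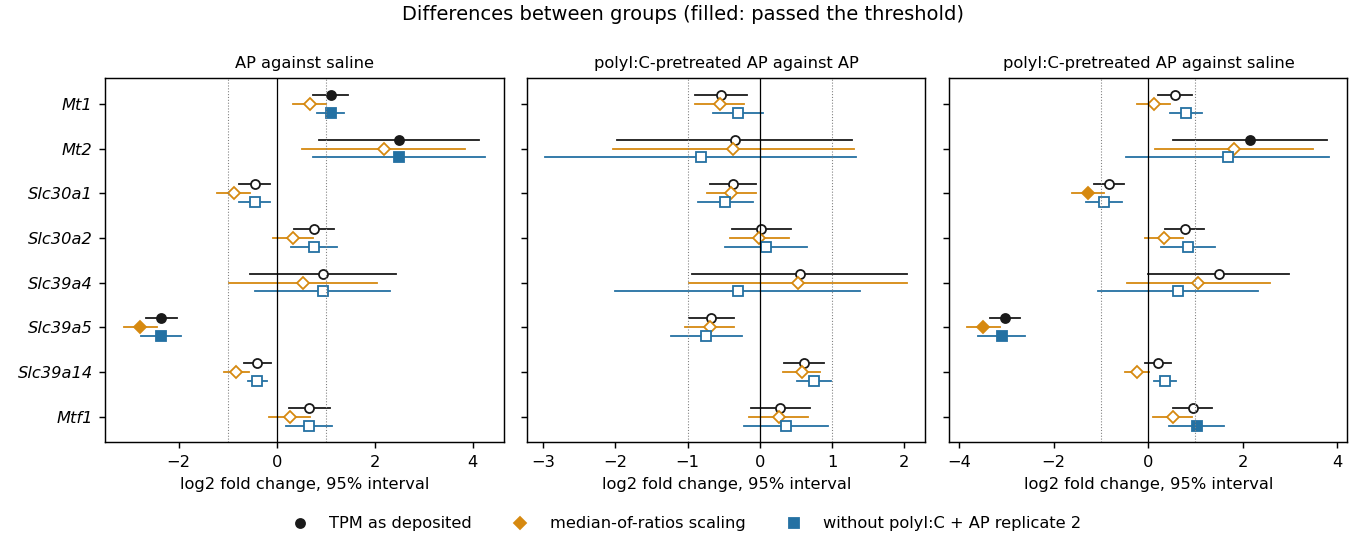
Log2 fold changes of the 8 genes (points) with 95% intervals (bars) in the 3 comparisons, for TPM as deposited, after median-of-ratios scaling and without replicate 2 of the pretreated mice. Filled points passed the threshold, and dotted lines mark 2-fold. Slc39a5 passed in all 3 settings against saline mice, while Mt1 and Mt2 passed in AP mice only without the scaling.

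Ordered by their mean level per length, the 8 genes kept nearly the same places in the 3 groups. Slc39a5 came first in saline mice and Mt1 second, without overlap, and their places were exchanged in both other groups. Slc30a1 and Slc39a14 came next in saline and AP mice, and in the AP mice their values overlapped. Slc39a4 overlapped with Mtf1 in the saline mice and with Slc30a1, Slc30a2 and Mtf1 in the pretreated mice, and Mtf1 with Mt2 in the AP mice. Mt2 had the lowest mean in all 3 groups. The gene lengths behind the deposited TPM are not given in the sources used here, so the order of genes with near levels is uncertain.

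RefSeq promoter windows were found for 6 of the 8 genes, with 2 start sites for Slc39a5. Slc30a2 held 2 matches to the metal response element core, the first Slc39a5 start held 1, and the second Slc39a5 start and Mtf1 held 0 each. The windows of Slc30a2 (from 134343216), Mtf1 (from 124802299) and the second Slc39a5 start lie wholly inside the GENCODE genes. Their counts do not describe the sequence upstream of the GENCODE starts of these genes. Another pair of sequences was searched on both strands. The core of the antioxidant response element, TGACNNNGC, which binds Nrf2 and lies in 12.4% of all windows, was found once each for Mt2 and Slc30a1 and at 2 places for the second Slc39a5 start. The STAT palindrome TTCNNNGAA, found in 8.30% of all windows, was in none of those of the 6 genes. No match overlapped one to another sequence. Of the genes with matches to the metal response element, Mt1 and Mt2 rose in AP mice, and Slc39a5, with a match at only 1 of its 2 starts, fell. With 2 matches each, Slc30a1 was lower and Slc30a2 higher in AP mice, both below 2-fold. At least 1 match lay in 25.7% of all windows. Whether the matches bear on these levels was not tested.

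**Figure D4:**
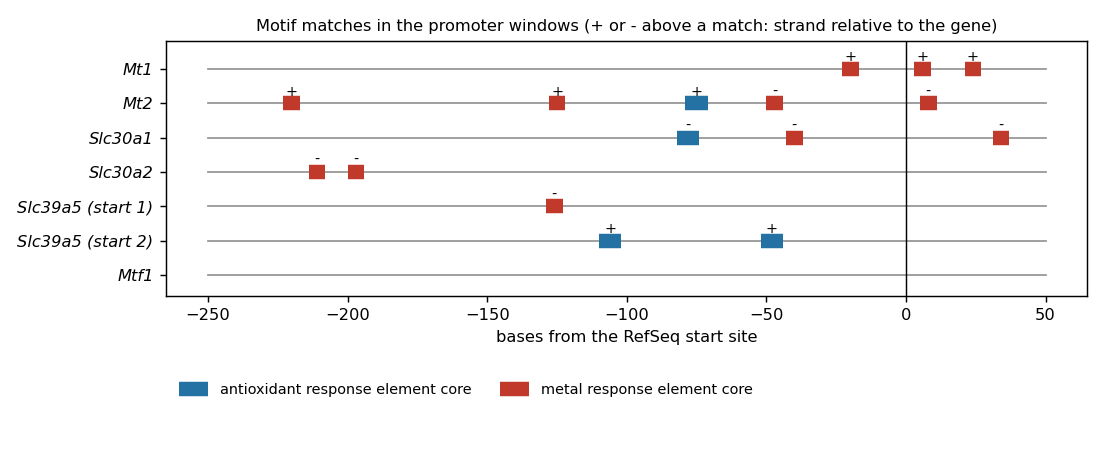
Positions of matches to the cores of the metal response element (red) and the antioxidant response element (blue) in the RefSeq windows of 6 genes, in bases from the start site, with the strand relative to the gene above each match. Mt1 holds 3 and Mt2 4 matches to the metal response element core.

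The rest of the family was examined as 21 further genes, of which 20 had values and 17 reached a mean of 1 TPM. In AP mice, 3 of the 17 rose and 1 fell, against 18.2% and 4.03% of all genes. The median log2 fold change of the 17 was 0.19, below that of all genes (0.45). Slc39a1 (ZIP1), an importer of the plasma membrane, had the highest level of the 20. It was at 155.6 and 164.2 TPM with saline, 459.7 and 484.8 TPM with AP and 448.7 and 375.2 TPM after pretreatment. Both groups given caerulein lay well above the saline mice. Slc39a1 rose in AP mice (log2 fold change 1.56, SE 0.11, adjusted p = 0.000162) and in pretreated mice against saline mice (1.36, adjusted p = 0.000284). After median-of-ratios scaling the first still passed (1.13) and the second did not reach 2-fold (0.90).

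Slc39a6 (ZIP6) and Slc39a10 (ZIP10), a closely related pair of importers, were the other 2 that rose. Slc39a6 went from 5.62 and 5.97 TPM in saline mice to 21.1 and 24.7 TPM in AP mice, and was at 19.2 and 17.8 TPM in pretreated mice. Slc39a10 was at 2.99 and 2.55, then 6.55 and 9.41, and then 9.44 and 8.15 TPM. In neither did the saline mice overlap with the rest. The log2 fold changes in AP mice were 1.89 for Slc39a6 (adjusted p = 0.000284) and 1.36 for Slc39a10 (adjusted p = 0.00411), and against saline mice both also passed in pretreated mice (1.59 and 1.51), with and without the library with intestinal transcripts. After median-of-ratios scaling Slc39a10 was at 0.98 in AP mice and missed 2-fold.

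Slc30a8 encodes ZnT8, the transporter of insulin granules in beta cells, and it was the gene that fell. Its level was 37.9 and 32.0 TPM with saline, 21.6 and 13.5 TPM with AP and 17.8 and 25.4 TPM after pretreatment. The AP and the pretreated mice overlapped. The log2 fold change in AP mice was -1.01 (SE 0.28, adjusted p = 0.0294), at the edge of the threshold. Slc30a8 no longer passed when any of the 6 libraries was left out of the fit, nor with a pseudocount of 1 or no filter. After median-of-ratios scaling its value was -1.43, and Slc39a11, at -0.72 as deposited, passed as lower (-1.15). In pretreated against saline mice, that scaling made both pass as lower (Slc30a8 -1.15, Slc39a11 -1.06). Without that scaling, limma and voom called 0 of the 6 islet markers in AP mice, where limma called 22.2% of all genes. At any fold, 0 had an adjusted p of at most 0.05 by limma, against 40.4%. With the scaling 0 passed there, and their median log2 fold change was -0.57, against 0.0574 for all genes. In pretreated against saline mice, limma and voom each called 1 of the 6 lower, against 2.97% of all genes with limma. With the scaling 3 passed as lower there, against 982 of 16814 genes. The summed level of the 6 markers was 1590 to 1689 TPM in saline, 1566 to 1746 TPM in AP and 892.7 to 1251 TPM in pretreated mice. In pretreated against AP mice, limma and voom called 0 of the 17, and 1 (Slc39a9) had an unadjusted p under 0.05. With limma the shares of all genes were 0.845% and 13.9%. Slc30a10, a manganese exporter made in the intestine among other tissues, is a further case of the library with intestinal transcripts, where it was at 25.1 TPM, while it was at most 0.08 TPM in the other 5.

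**Figure D5:**
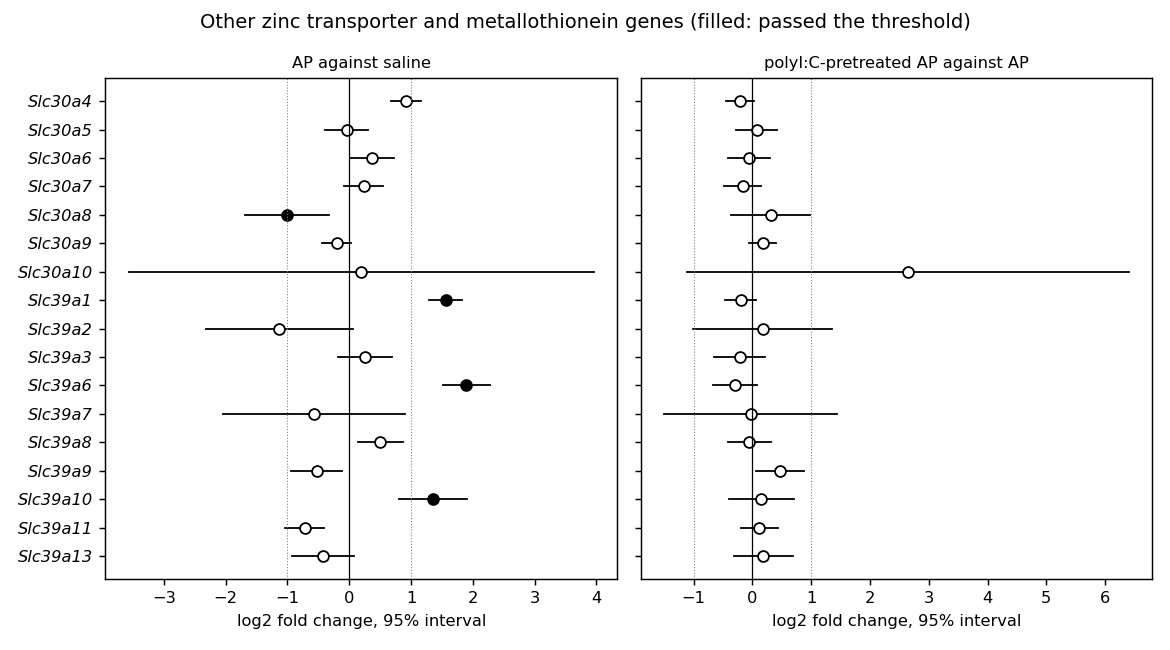
Log2 fold changes (points) with 95% intervals (bars) of the 17 other zinc transporter genes tested, in AP against saline and in pretreated against AP mice. Filled points passed the threshold, which Slc39a1, Slc39a6, Slc39a10 and Slc30a8 did in the first comparison and no gene did in the second.

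Of 5 other genes that MTF-1 is known to act on or is linked to, 2 rose in AP mice and none fell, by limma. The shares of all genes were 18.2% and 4.03%. Voom called 1 (Gclc). Both AP mice lay above both saline mice for all 5, against 52.6% of all genes. By limma, 3 were higher with an adjusted p of at most 0.05 at any fold, against 33%. After median-of-ratios scaling only Gclc passed in AP mice, against 1566 of 16814 genes higher. Gclc, the catalytic subunit of the enzyme that limits glutathione synthesis, was at 39.5 and 35.6 TPM with saline, 355.7 and 454.9 TPM with AP and 772.7 and 509.7 TPM after pretreatment. It rose in AP mice (log2 fold change 3.41, adjusted p = 0.000108), and in pretreated against saline mice (4.05), and its 3 groups did not overlap. Csrp1, a LIM domain protein, was at 307.1 and 312.2, 608.9 and 643.1, and 433.2 and 411.8 TPM, an order of groups like that of Mt1. It rose in AP mice (1.01, adjusted p = 0.000286), but was 0.58 after median-of-ratios scaling. Slc40a1, the iron exporter ferroportin, rose in pretreated against saline mice (2.15, adjusted p = 0.023). Its value there was 1.18 without the library with intestinal transcripts, in which it was at 40.7 TPM against 10.3 TPM in the other mouse, and 1.72 after median-of-ratios scaling, where it did not pass. Between pretreated and AP mice, limma and voom called 0 of the 5. By limma, 3 had an unadjusted p under 0.05, against 13.9% of all genes (Gclc, Csrp1 and Ndrg1). Of these, Csrp1 was lower with an adjusted p of at most 0.05 but below 2-fold. At any fold, 1.23% of all genes had such an adjusted p.

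Metallothioneins and Slc39a14 are also induced by interleukin-6 through STAT3, and metallothioneins by glucocorticoids. In the list of the STAT3 axis and the acute phase, 7 of 8 genes were tested. Of these, 3 rose in AP mice (Lcn2, Socs3 and Stat3) and 1 fell (Il6ra), against 18.2% and 4.03% of all genes. Lcn2, an iron-binding acute phase protein, had a log2 fold change of 4.21 (adjusted p = 0.00308), and Socs3, the feedback inhibitor of STAT3, one of 2.40 (adjusted p = 0.00455). Il6ra, the receptor for interleukin-6, had one of -1.10 (adjusted p = 0.00421). Lcn2 and Socs3 rose in pretreated against saline mice too (4.94 and 2.74), and both also passed without the library with intestinal transcripts. Stat3 had 1.11 in AP mice and 0.68 after median-of-ratios scaling, below 2-fold, while Il6ra in pretreated against saline mice did not pass as deposited (-0.80) but did after that scaling (-1.24) and with voom. Il6 itself was at 0 in both saline mice and at most 0.37 TPM elsewhere.

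Of the 5 glucocorticoid-responsive genes, limma called 0 higher and 1 lower in AP mice, against 18.2% and 4.03% of all genes. At any fold, 2 were lower with an adjusted p of at most 0.05, against 7.39% of all genes. The gene called was Sgk1, a kinase gene induced by glucocorticoids, at 81.3 and 64.5 TPM with saline, 28.1 and 32.5 TPM with AP and 63.6 and 57.5 TPM after pretreatment (log2 fold change in AP mice -1.25, adjusted p = 0.000935). Mt1 and Sgk1 therefore lay on opposite sides of saline in AP mice. After median-of-ratios scaling and with voom, Tsc22d3 and Fkbp5 also passed as lower in AP mice, so that 3 of the 5 did. In pretreated against AP mice, Sgk1 was higher with an adjusted p of at most 0.05, as 1.23% of all genes had at any fold. Its ratio of group means there was 1.998, and it was not called.

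For each of the 3 genes that passed in any comparison, the most similar profiles over the 6 libraries were sought among 9414 genes averaging 10 TPM or more. Likeness was measured as the root mean square difference of log2 profiles centred on the saline mice, and is a description without a test. The genes nearest to Mt1 were Zpr1 (0.0917), Grk2 (0.0940) and Sdc4 (0.110). Sdc4, which encodes a cell surface proteoglycan, was at 200.5 and 192.5 TPM in saline, 429.6 and 437.6 TPM in AP and 287.4 and 252.1 TPM in pretreated mice. Nearest to Mt2 were Hist1h4a (0.274), S100a10 (0.289) and Epsti1 (0.345), each further away than any of those found for Mt1. Nearest to Slc39a5 were Tff2 (0.207), Gpsm1 (0.232) and Tmed6 (0.284). Tff2, a secreted trefoil peptide, was at 34940 and 36640 TPM in saline mice, at 8229 and 7063 TPM in AP mice and at 3902 and 3388 TPM in pretreated mice.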

How the data were processed

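Read trimming (Trimmomatic), alignment to mm10 (STAR) and counting per gene (HTSeq) were done by the authors. The authors deposited TPM values per gene, 1 table per library. The gene lengths, the strand setting and the step from counts to TPM are not given in the sources used here. The labels name both a ribosomal RNA depletion kit with a directional kit and a stranded mRNA kit, and place all 6 libraries in the same lane.

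Of 22556 gene identifiers, 22490 were found in GENCODE M21 (GRCm38), the source of symbols, coordinates and exon lengths. TPM was used as deposited, because counts were not analysed here. Reads per library were estimated from the step of low values, as TPM times exon length. Between 51.1% and 62.4% of values under 20 reads lay within 0.1 of a whole multiple, against 19.3% to 20.6% with lengths shuffled. At the median gene length, 1 read stood for 0.0956 to 0.266 TPM, so low genes are least precise in the saline mice.

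The fit with limma (3.58.1, R 4.3.3) had 1 coefficient per group, and its variance prior followed log2(mean TPM × exon length + 1). It was tested on simulated data. Alternatives were pseudocounts of 0.1 and 1, no filter or a mean of at least 5 TPM, median-of-ratios scaling, scaling without the 15 genes above 1% of a library, a prior on the mean log2 value, voom on estimated reads, a replicate block, and fits without 1 library each. Replicate numbers come from the labels. Deviations of same-numbered libraries from their group means correlated at -0.00385 to 0.0351, so the numbers were not taken to pair mice. Correlation between the libraries of a group, over genes, was 0.885 to 0.918.

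The 8 genes and the lists were chosen with earlier results of these data known. The intestinal list and the reading of Mt2 at its gene span were chosen after the values had been seen. The named genes are the 8, those of the rest of the family called in any comparison or highest in level, the largest calls of each further list (at most 2 in each direction and comparison), and the 3 nearest profiles. Stat3, Rbpjl, Gatm, Bhlha15, Ptf1a, Nr5a2, S100a8, S100a9, Itgam, Lyz2, Csf1r, Dcn, Slc39a11, Ndrg1, Slc39a7, Slc39a9, Slc30a10, Il6, Tsc22d3 and Fkbp5 are named besides, after their values were seen.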

Additional observations from a re-analysis of the deposited data

Results flagged for a closer look

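The 14 intestinal epithelial genes summed to 4139 TPM in replicate 2 of the pretreated mice, against 11.21 to 21.64 TPM in the other 5 libraries, saline mice included. They stand outside every comparison of zinc genes and were looked at after the values of Slc39a4 and Slc30a10 in that library had been seen.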

How the results depend on the processing

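For the 8 genes, 345 of 381 combinations of a log2 fold change and an alternative kept the direction and the side of the threshold, 11 changed sign, 19 lost a call and 6 gained one. The falls of Slc39a5 against saline mice held throughout. In AP against saline mice, 3 of the 8 passed, against 1 after median-of-ratios scaling, 1 with voom and 2 to 3 with a library left out. With a library left out, 2 to 3 of the rest of the family passed (4 with all libraries) and 2399 to 3648 of all genes (3730). In pretreated against AP mice, 142 of all genes passed, against 90 without a filter, 28 with the prior on the mean log2 value, 323 with voom and 0 to 80 with a library left out. It was 0 without either AP library or without replicate 2 of the pretreated mice, and 0 to 1 for the rest of the family. In pretreated against saline mice, 2 of the 8 passed, against 1 with a mean of at least 5 TPM, which removes Mt2, and 1 to 2 with a library left out. Median-of-ratios scaling moved the split of all genes from 3053 higher and 677 lower to 1566 and 1220 in AP against saline mice, and from 2838 and 500 to 1325 and 982 in pretreated against saline mice. Except where the construction shows it, the cause was not tested.

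Signs turned only for differences that had not passed. Between pretreated and AP mice, Mt2 turned to 0.20 without AP replicate 2 and 0.12 without pretreated replicate 1, in a range from -0.91 to 0.20 with a library left out. Slc30a2 turned to -0.0063 after median-of-ratios scaling, -0.017 with scaling without the most abundant genes, -0.0067 with voom, -0.084 without AP replicate 2 and -0.051 without pretreated replicate 1. Slc39a4 turned to -0.31 without pretreated replicate 2, in a range from -0.31 to 1.42. Slc39a14 against saline mice turned to -0.24, -0.032 and -0.069 under those scalings and voom.

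With the replicate number as a block, 3, 0 and 2 of the 8 passed in the 3 comparisons, as without it, and 3646, 124 and 3287 of all genes. With about 1 read in a saline library, the size of the Mt2 difference is poorly set at this depth.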
